A study of Homo sapiens with 8 samples.

Results

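ENC1, TM4SF4, LMNTD1 and ZPLD1 are 4 genes of unrelated families that stood at or near the top of the rises in SW480 cells after silencing of TCF7L2. They are 4 of 18656 listed genes. They were chosen by symbol for the size of their rise at 48 and 72 h against 0 h and because none belongs to a larger family among the strongest rises, so their values at 48 and 72 h chose them and are given here as a description, with no test. The 24 h libraries played no part in the choice, but the 0 h libraries they are compared with did. A choice by large rises favours low 0 h values, which can tilt the 24 h changes of these genes upward.

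SW480 is an established human colorectal cancer line. The cells received small interfering RNA (siRNA) with a lipid reagent: a negative-control siRNA labelled 0 h, or an siRNA against TCF7L2 for 24, 48 or 72 h. Total RNA depleted of ribosomal RNA was sequenced in 2 libraries a group, 8 in all; 3 replicates are spoken of in the treatment protocol. The labels do not tie replicates to separate cultures, so every p-value rests on a between-library spread that may be technical. On deposited values that spread is shared by genes of similar level, so a very small p-value does not measure a gene's own spread. The only control is the one labelled 0 h, and silencing of TCF7L2 and hours since transfection therefore cannot be told apart. Levels are TPM, a share of a library's transcripts corrected for transcript length, and read depth is unknown.

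TCF7L2 encodes a DNA-binding partner of beta-catenin, the effector of Wnt signalling, which is active without ligand in most colorectal cancers and drives the crypt programme of the gut. TCF/LEF proteins can activate or repress genes according to the partners they bind. ENC1, ectodermal-neural cortex protein, is a BTB-kelch protein that binds actin, is abundant in the developing nervous system and has been described as responsive to beta-catenin in colorectal tumours. TM4SF4 is a membrane protein with 4 passes of the L6 family, known from intestine, liver and pancreatic islets. LMNTD1 carries a lamin tail domain, the fold found at the end of nuclear lamins. ZPLD1 is a membrane protein with a zona pellucida-like domain, the polymerising module of egg coat and inner ear matrix proteins.

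TCF7L2 itself was listed at 6.86 and 7.47 TPM under control siRNA. Under its own siRNA the pairs were 5.82 and 5.05 TPM after 24 h, 4.92 and 4.07 after 48 h, then 4.07 and 3.53 after 72 h. The 72 h change was -0.77 ± 0.17 on the log2 scale (SE; limma, adjusted p = 2.98e-05). The second 72 h library stood apart: its listed TPM summed to 352456, against 448107 to 485602 in the other 7 libraries, and over the 11894 genes kept for the test, those reaching 1 TPM in 2 or more libraries, its median ratio to the first 72 h library was 0.771. Changes are therefore given on log2(TPM + 1) as deposited and, where it matters, after median-ratio scaling, which divides each library by its median ratio to the average profile. Scaling moved the median change of all kept genes at 72 h from -0.19 to 0.00. Of the 9 colon epithelial markers chosen for checking the line, 8 were at 1 TPM or more in every library, and GPA33 was the exception.

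Promoter sequence was available from RefSeq (GRCh38.p14) for 3 of the 4 genes, and the 250 bases before 1 annotated start of each are printed because the genes rose over the same hours. GENCODE v29 lists 3 distinct starts for TM4SF4, 11 for LMNTD1 and 4 for ZPLD1, and which of them these cells use is not known. TM4SF4 lies on chromosome 3 with the window chr3:149474447-149474696 on the plus strand, LMNTD1 on chromosome 12 with chr12:25648579-25648828 on the minus strand, and ZPLD1 on chromosome 3 with chr3:102434765-102435014 on the plus strand; ENC1 lies on chromosome 5. Capitals mark matches to the motifs searched on both strands.
TM4SF4: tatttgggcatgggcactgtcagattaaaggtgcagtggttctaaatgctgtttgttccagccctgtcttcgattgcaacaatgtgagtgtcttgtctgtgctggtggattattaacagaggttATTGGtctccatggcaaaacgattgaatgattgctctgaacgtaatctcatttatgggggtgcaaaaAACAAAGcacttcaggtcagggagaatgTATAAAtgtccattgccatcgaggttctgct
LMNTD1: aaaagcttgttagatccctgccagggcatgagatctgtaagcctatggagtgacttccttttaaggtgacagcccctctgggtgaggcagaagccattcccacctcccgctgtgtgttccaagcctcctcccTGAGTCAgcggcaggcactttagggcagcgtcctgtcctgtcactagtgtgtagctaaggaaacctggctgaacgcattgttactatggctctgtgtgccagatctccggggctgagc
ZPLD1: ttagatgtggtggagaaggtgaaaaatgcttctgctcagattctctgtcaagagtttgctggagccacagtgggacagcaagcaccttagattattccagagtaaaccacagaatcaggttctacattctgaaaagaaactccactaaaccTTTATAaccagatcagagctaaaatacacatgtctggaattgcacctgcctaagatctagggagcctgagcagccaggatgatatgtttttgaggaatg
The searched letters were ATCAAAG, a motif bound by TCF/LEF proteins, and the variant AACAAAG, which TCF/LEF proteins share with SOX proteins. The AP-1 motif TGANTCA, the E-box CACGTG, the promoter box CCAAT, the GC box GGGCGG and the TATA box TATAAA were searched too. TM4SF4 held AACAAAG 59 bases before the start, TATAAA 31 bases before it and CCAAT on the other strand 126 bases before it. LMNTD1 held TGANTCA 118 bases before the start, and ZPLD1 held TATAAA on the other strand 99 bases before the start. Among 27305 promoter windows of the same length, AACAAAG was in 4.54%, TATAAA in 11.1%, CCAAT in 33%, TGANTCA in 6.6% and ATCAAAG, which none of the 3 held, in 2.28%. GGGCGG was in 42.3% of windows and CACGTG in 6.49%, and none of the 3 held either. The GC content was 43.2% for TM4SF4, 55.2% for LMNTD1 and 42.8% for ZPLD1, below the median of 58% over all windows. CpG pairs numbered 4, 5 and 0 against a median of 11. A match describes the letters only, and the windows differ from one another in which motifs they hold.

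ENC1 was at 3.17 and 2.75 TPM under control siRNA. Under TCF7L2 siRNA it read 3.57 and 4.58 TPM after 24 h, 20.16 and 20.94 after 48 h, then 46.44 and 34.57 after 72 h. The times did not overlap: each later pair of libraries lay above the pair before it. Both 48 h libraries lay above both 0 h libraries for 30.7% of all kept genes, and both 72 h libraries for 17.4%. Its mean went from 2.96 ± 0.297 TPM (SD, n = 2) to 20.6 ± 0.552 at 48 h and 40.5 ± 8.39 at 72 h, log2 changes of 2.45 ± 0.16 and 3.38 ± 0.16. ENC1 moved from about the middle of the listed genes by level in the 0 h libraries (percentiles 47.2 and 45.9) to percentiles 90.8 and 90.5 at 72 h. Most of its change was made between 24 and 48 h, a step of 2.09 on the log2 scale, followed by 0.93 from 48 to 72 h.

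TM4SF4 started low, at 0.32 and 0.05 TPM at 0 h and 0.27 and 0.32 at 24 h. It was then at 5.02 and 3.61 TPM at 48 h, and at 12.72 and 10.51 at 72 h. The 0 h and 24 h libraries overlapped, and all 4 later libraries lay far above them. The mean rose from 0.185 ± 0.191 to 4.32 ± 0.997 and 11.6 ± 1.56 TPM, log2(TPM + 1) changes of 2.16 ± 0.17 and 3.42 ± 0.17. The ratio of mean TPM between 72 and 0 h was 62.8, the highest of the 4 genes, but its denominator is the mean of 0.32 and 0.05 TPM and is poorly fixed. Its step from 24 to 48 h was 2.02 and that from 48 to 72 h 1.25. None of the 31-base stretches of its transcripts was shared with another gene.

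LMNTD1 read 2.65 and 2.91 TPM at 0 h, 4.22 and 4.12 after 24 h, 12.72 and 12.18 after 48 h, then 36.31 and 28.18 after 72 h. No pair of libraries overlapped the pair before it, and the replicates of the first 3 times were close together. The means were 2.78 ± 0.184, 4.17 ± 0.0707, 12.5 ± 0.382 and 32.2 ± 5.75 TPM, with log2 changes against 0 h of 1.83 ± 0.16 at 48 h and 3.13 ± 0.16 at 72 h. LMNTD1 changed by steps of 1.38 from 24 to 48 h and 1.29 from 48 to 72 h. Its locus has 11 annotated transcripts with 11 starts, and 6.4% of their 31-base stretches recur in other genes on the same strand, so a small part of its signal could be split with those.

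ZPLD1 also started low. It read 0.32 and 0.26 TPM at 0 h, 0.19 and 0.22 after 24 h, 1.65 and 2.09 after 48 h, then 9.26 and 7.25 after 72 h. Both 24 h libraries lay below both 0 h libraries, at levels under 1 TPM and as in 46.7% of all kept genes, and the later pairs lay above without overlap. The means at 48 and 72 h were 1.87 ± 0.311 and 8.26 ± 1.42 TPM, log2 changes of 1.15 ± 0.17 and 2.83 ± 0.17. Its step from 24 to 48 h was 1.25 and that from 48 to 72 h 1.68. Which step is larger depends on the processing: after median-ratio scaling the later step was the larger for ZPLD1 (1.85 against 1.19) and for LMNTD1 (1.5 against 1.30), and with a pseudocount of 0.1 the earlier step was the larger for ZPLD1 (2.68 against 2.08). With a pseudocount of 5 the later step was the larger for ZPLD1 (0.94 against 0.40), LMNTD1 (1.09 against 0.93) and TM4SF4 (0.84 against 0.81).

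**Figure D1:**
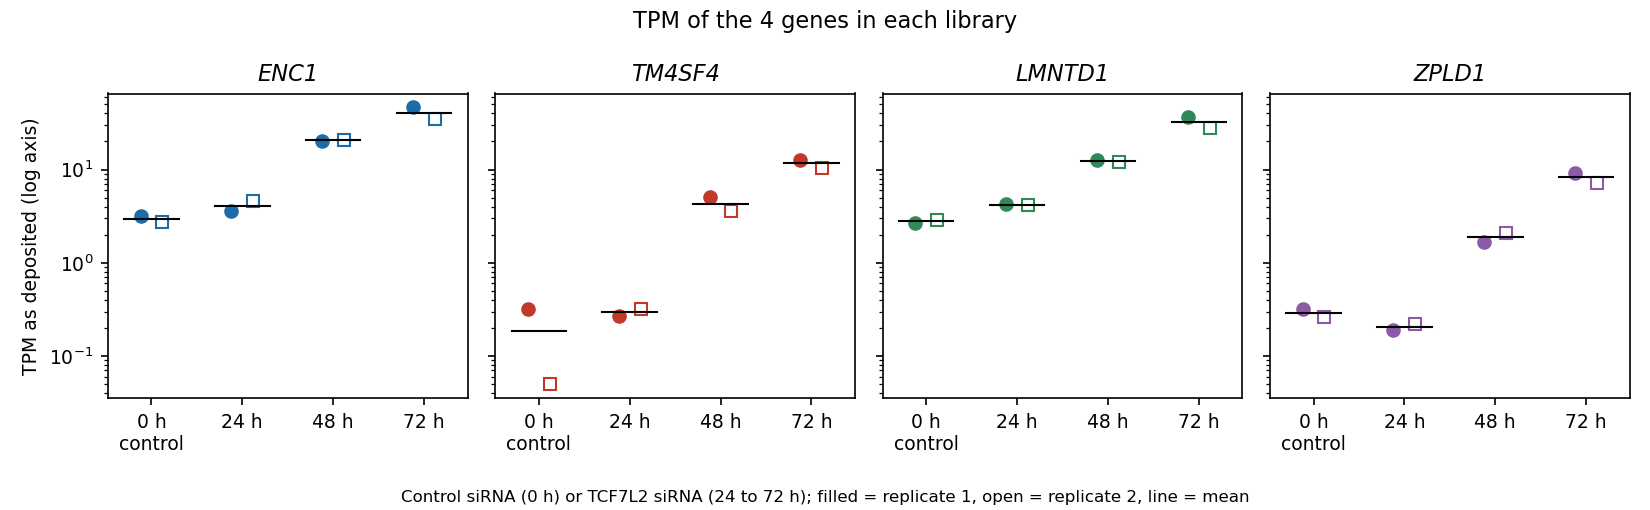
TPM of ENC1, TM4SF4, LMNTD1 and ZPLD1 in each of the 8 libraries on a log axis, by time. Filled circles are replicate 1, open squares replicate 2 and lines the mean of the pair; ENC1 goes from 2.75 to 3.17 TPM at 0 h to 34.57 to 46.44 at 72 h, and TM4SF4 and ZPLD1 stay under 1 TPM at 0 and 24 h.

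At 24 h none of the 4 changes passed the test adjusted over all kept genes, where 0.462% of genes passed in either direction. ENC1 had a log2 change of 0.35 ± 0.16 (limma, adjusted p = 0.597) and LMNTD1 0.45 ± 0.16 (limma, adjusted p = 0.322). Both 24 h libraries lay above both 0 h libraries for these 2 genes, as they did for 10.8% of all kept genes. The same 2 members had an unadjusted limma p under 0.05 (0.0292 for ENC1 and 0.00535 for LMNTD1), as did 7.14% of all kept genes. TM4SF4 differed by 0.14 ± 0.17 (limma, adjusted p = 0.916) and ZPLD1 by -0.10 ± 0.17 (limma, adjusted p = 0.942). After median-ratio scaling, with 1.08% of all kept genes called, LMNTD1 was called at 24 h with a log2 change of 0.52 ± 0.08 (limma, adjusted p = 0.02) and ENC1 was not, at 0.43 ± 0.11 (limma, adjusted p = 0.0922). On the TPM as deposited LMNTD1 was called without the first or the second 72 h library (limma, adjusted p = 0.0265 and 0.0266), fits that called 6.28% and 6.25% of all genes at 24 h. It was not called without any of the other 6 libraries (limma, adjusted p = 0.692 to 1).

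By level, ENC1 and LMNTD1 were the higher pair and TM4SF4 and ZPLD1 the lower pair at all 4 times. At 48 h the order in TPM was ENC1, LMNTD1, TM4SF4 and ZPLD1, with no overlap between neighbours in that order. At 72 h it was the same, except that ENC1 and LMNTD1 overlapped, the lower ENC1 library (34.57) being below the higher LMNTD1 library (36.31). At 0 h neither ENC1 and LMNTD1 nor TM4SF4 and ZPLD1 could be ordered, since their libraries overlapped. All 4 had a lower TPM in the second 72 h library than in the first, with ratios of 0.744 for ENC1, 0.826 for TM4SF4, 0.776 for LMNTD1 and 0.783 for ZPLD1, close to the 0.771 of the median kept gene. After scaling, the pair of 72 h values was 44.8 and 43.0 TPM for ENC1, 12.3 and 13.1 for TM4SF4, 35.05 and 35.03 for LMNTD1, and 8.94 and 9.01 for ZPLD1. The scaled log2 changes at 72 h were 3.57, 3.55, 3.32 and 2.97 in the same order, each larger than on the deposited values. In bulk RNA, more cells with a transcript and more transcript per cell cannot be told apart.

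The share of the 72 h log2 change that was already present at 48 h was 72.4% for ENC1, 63.3% for TM4SF4, 58.6% for LMNTD1 and 40.6% for ZPLD1. Between 48 and 72 h the mean TPM grew 1.97 times for ENC1, 2.69 times for TM4SF4, 2.59 times for LMNTD1 and 4.41 times for ZPLD1. ZPLD1 had the smallest share under pseudocounts of 0.1 and 5 (52.8% and 28.5%) and after scaling (37.6%) too. The order of the others depended on the processing. With a pseudocount of 0.1 ENC1 (74.2%) and TM4SF4 (74.4%) could not be ordered, and with 5 LMNTD1 (51.8%) stood above TM4SF4 (50.2%). Ranked by log2 change at 48 h among the kept genes, the 4 stood at 1, 3, 10 and 50, and at 72 h at 3, 2, 5 and 9. At 24 h their ranks had been 140, 937, 64 and 6261. These ranks describe the choice, since 48 and 72 h were used to make it.

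Among genes with a mean of 5 TPM or more at 48 h, ENC1 was first, followed by the metallothionein gene MT4 (2.36) and the enamel matrix gene AMBN (2.03). LMNTD1 was the eighth, with the hyaluronan receptor gene CD44 (1.90) and the readthrough transcript ATP6V1G2-DDX39B (1.87) just above it, and the desmosomal cadherin gene DSC2 (1.79) and the semaphorin gene SEMA3C (1.74) just below. TM4SF4 and ZPLD1 were under that level at 48 h. At 72 h the top of the ranking was MTRNR2L12, a near-identical copy of mitochondrial sequence and therefore uncertain, and it rested on 1 library: its 72 h libraries held 0.93 and 404.30 TPM. TM4SF4, ENC1, FDCSP (3.27), LMNTD1, CD44 (3.11), CEACAM6 (3.01), SOX2 (2.88), ZPLD1, AMBN (2.78) and ALDH1A1 (2.69) followed in that order of log2 change. FDCSP encodes a secreted peptide of follicular dendritic cells, CEACAM6 an intestinal adhesion molecule, SOX2 a stem-cell transcription factor and ALDH1A1 a retinaldehyde dehydrogenase.

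Likeness of time course was measured as the root mean square difference between log2(TPM + 1) profiles over the 8 libraries, each set to 0 at its own 0 h mean, against 9351 genes with a mean of 5 TPM or more at some time. The genes nearest to ENC1 were CD44 (0.385), AMBN (0.386) and ALDH1A1 (0.458). Nearest to TM4SF4 were CD44 (0.282), AMBN (0.355) and CEACAM6 (0.376). LMNTD1 had CEACAM6 (0.194), SOX2 (0.197) and ALDH1A1 (0.249) at a smaller distance. ZPLD1 had a different set: COL17A1 (0.203), a collagen of hemidesmosomes, NTS (0.256), the neurotensin gene, and ECM1 (0.278), an extracellular matrix gene.

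The nearest genes held different levels. CD44 read 12.80 and 12.08 TPM at 0 h, 14.07 and 11.66 after 24 h, 45.63 and 53.27 after 48 h, then 113.87 and 116.83 after 72 h, above ENC1 at each time. CEACAM6 went from 0.05 and 0 TPM at 0 h to 7.86 and 6.73 after 72 h. COL17A1 went from 0.22 and 0.24 TPM at 0 h through 1.34 and 2.12 after 48 h to 8.19 and 5.35 after 72 h. COL17A1 and ZPLD1 both started low and were higher at 72 h than at 48 h. After scaling, the first 2 neighbours of each member were again those named, in exchanged order for LMNTD1, while the neighbours in the last place became SOX2 for ENC1 and TM4SF4, CD44 for LMNTD1 and CEACAM6 for ZPLD1. Pearson's r between a member and its 3 nearest genes was 0.984 to 0.998, over the same 8 libraries, on deposited values. On these, 165 to 172 of the 9351 genes had r above 0.95 with each member, and after scaling 375 to 473, so the nearest 3 are a small part of a large group with a similar course. Among the members themselves ENC1 and TM4SF4 were the closest pair, at 0.226, and ENC1 and ZPLD1 the most distant, at 0.742.

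**Figure D2:**
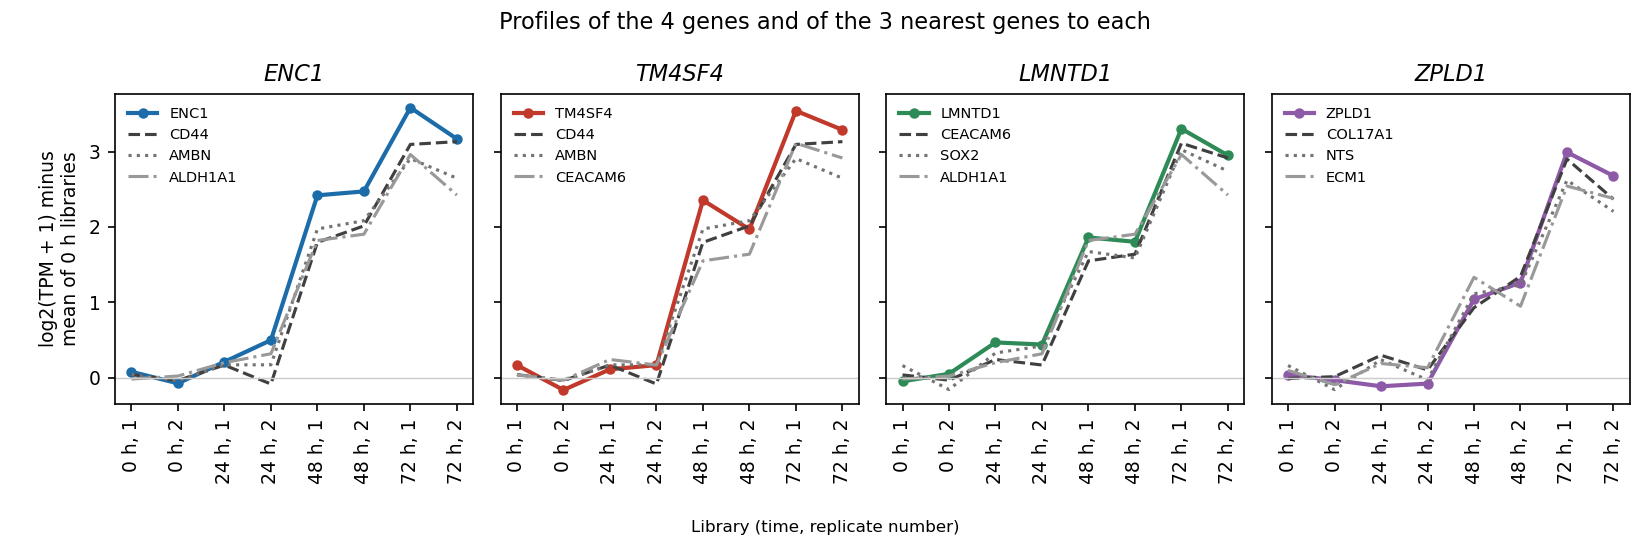
Log2(TPM + 1) minus the mean of the 0 h libraries, for each of the 4 genes (coloured line) and its 3 nearest genes (grey lines), in each of the 8 libraries. ENC1 runs above its neighbours CD44, AMBN and ALDH1A1 at 48 h, and ZPLD1, with COL17A1, NTS and ECM1 beside it, was the lowest of the 4 genes at 48 h (1.15).

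The relatives of the 4 genes were counted next. Their own values did not choose the 4 genes, although the choice left out families with several strong rises, so the counts below are a description. ENC1 has 49 listed BTB-kelch relatives, many of them substrate adaptors of CUL3 ubiquitin ligases, and 32 were kept. At 72 h, when 10.5% of all kept genes were higher and 31.2% lower (41.8% in all), 1 of the 32 was higher and 10 were lower, with a median log2 change of -0.20 beside -0.19 for all kept genes. KBTBD6 (-0.89 ± 0.17, limma adjusted p = 1.26e-06), KLHL12 (-0.85 ± 0.16, 1.88e-06) and KLHL23 (-0.79 ± 0.16, 9.09e-06) were the clearest falls. The 1 higher gene, named after its value was seen, was KBTBD3 (0.81). After scaling, with 25.8% of kept genes higher and 26.2% lower (52.0% in all), 2 were higher and 8 lower, and the median was -0.02.

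TM4SF4 has 5 listed L6 relatives, and 1, TM4SF1, was kept. TM4SF5, TM4SF18 and TM4SF20 never exceeded 0.31 TPM, and TM4SF19 was at 1.94 TPM in the second 72 h library and under 1 in the others. TM4SF1, a surface protein known from many carcinomas, read 7.23 and 8.39 TPM at 0 h, 5.37 and 5.76 after 24 h, 13.85 and 12.49 after 48 h, then 36.63 and 25.3 after 72 h. It lay below the 0 h libraries at 24 h and above them at 48 and 72 h. Its log2 change was -0.42 ± 0.16 at 24 h, which did not pass the test (limma, adjusted p = 0.389), 0.69 ± 0.16 at 48 h (limma, adjusted p = 0.000896) and 1.84 ± 0.16 at 72 h (limma, adjusted p = 7.36e-28), the 48th largest rise of all kept genes. Its 48 h call was lost without the first 0 h library (limma, adjusted p = 0.176) or the first 48 h library (0.123). The tetraspanins, a separate family of proteins with the same number of membrane passes, numbered 22 kept of 33 listed. Among them 3 were higher at 72 h and 6 lower, with a median of -0.09, beside 10.5% and 31.2% of all kept genes and their median of -0.19. After scaling 6 were higher and 5 lower, with a median of 0.11, beside 25.8% and 26.2% and a median of 0.00. CD9, an abundant tetraspanin, fell from 129.97 and 133.18 TPM at 0 h to 50.55 and 41.71 at 72 h (-1.50 ± 0.16, limma adjusted p = 2.17e-18). TSPAN8, an intestinal tetraspanin, rose from 7.13 and 6.77 to 22.21 and 17.62 (1.39 ± 0.16, 4.83e-16), and TSPAN4 fell by 0.81 ± 0.16 on the log2 scale (5.94e-06). The other higher tetraspanins, named after their values were seen, were TSPAN1 (0.59) and CD63 (0.49).

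For LMNTD1 the list held lamins and proteins of the inner nuclear membrane, and 19 of 20 listed genes were kept. At 72 h 1 was higher and 10 were lower, with a median of -0.45, beside 10.5% and 31.2% of all kept genes and their median of -0.19. After scaling 3 were higher and 10 lower, with a median of -0.23, beside 25.8% and 26.2% and a median of 0.00. LMNA, which encodes lamins A and C, was the higher one: 151.52 and 155.38 TPM at 0 h and 293.62 and 229.25 at 72 h (0.75 ± 0.17, limma adjusted p = 4.38e-05). SYNE3, a nesprin that links the nucleus to the cytoskeleton, fell from 13.27 and 13.24 to 5.64 and 4.34 TPM (-1.26 ± 0.16, limma adjusted p = 3.7e-13), and TMEM43 fell by 0.91 ± 0.16 (2.44e-07). Of the 16 listed zona pellucida domain relatives of ZPLD1, 5 were kept, 1 of them higher and 2 lower at 72 h on deposited and on scaled values, too few to set beside those shares. These were TGFBR3, a TGF-beta coreceptor (0.81 ± 0.17, limma adjusted p = 2.77e-05), ENG, the related coreceptor endoglin (-0.79 ± 0.18, 5.97e-05), and ZP3, an egg coat protein (-0.64 ± 0.16, 0.000427). The TGFBR3 call was lost without the first 0 h library (limma, adjusted p = 0.0571) or the second 72 h library (0.0621).

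**Figure D3:**
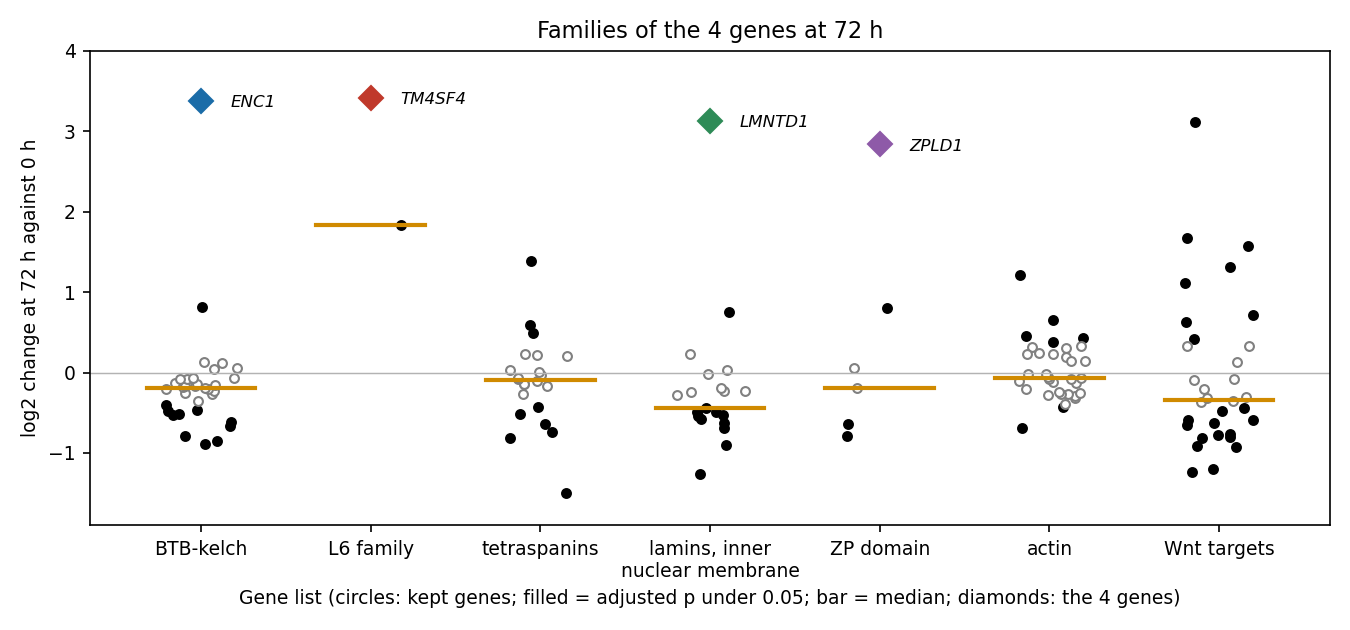
Log2 change at 72 h against 0 h of the 4 genes (diamonds) and of the kept genes of each list (circles, filled where the adjusted p is under 0.05), with the median of each list as a bar. The 4 genes lie between 2.83 and 3.42, above every circle except CD44 (3.11) among the Wnt targets, which exceeds ZPLD1.

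Actin regulators and Wnt targets were also counted, since ENC1 binds actin and TCF7L2 acts in the Wnt pathway. The shares of all kept genes to read these counts against are again 10.5% higher and 31.2% lower, and 25.8% and 26.2% after scaling. Of 34 kept actin cytoskeleton genes 5 were higher and 2 lower at 72 h, with a median of -0.07. The higher count was 20 after scaling, with a median of 0.15, and 12 without the second 72 h library, so it depends on how that library is treated. MSN, the membrane-actin linker moesin, rose from 32.71 and 33.07 TPM to 85.79 and 70.02 (1.21 ± 0.16, limma adjusted p = 1.85e-12), and GSN, the filament-severing protein gelsolin, by 0.65 ± 0.16 (0.000318). TAGLN, transgelin, fell by 0.70 ± 0.17 on the log2 scale (limma, adjusted p = 0.000218), a call lost after scaling (0.178) and without the first 0 h (0.0571) or the first 72 h library (0.203). Other actin genes that passed, named after their values were seen, were TPM1 (0.46), ENAH (0.43) and RDX (0.38), all higher. Of 32 kept Wnt targets 8 were higher and 14 lower at 72 h, with a median of -0.34, and 11 and 14 after scaling. CD44 (3.11 ± 0.16, limma adjusted p = 8.39e-81), the growth factor gene FGF20 (1.67 ± 0.16, 2.78e-23) and the TCF7L2 relative LEF1 (1.58 ± 0.16, 7.25e-21) were the clearest rises. The clearest falls, named after their values were seen, were NOTUM (-1.24 ± 0.17, limma adjusted p = 4.74e-12), CEMIP (-1.20 ± 0.17, 5.02e-11) and CCND1 (-0.92 ± 0.16, 2.7e-07).

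The chromosomal neighbours of the 4 genes were then examined, taking 5 listed protein-coding genes on each side in RefSeq order, 40 genes of which 33 were kept. At 48 h, when 4.61% of kept genes were higher (7.75% called in all), 5 of the 33 were higher. At 72 h 11 were higher, 5 lower and 17 not called, when 10.5% of all kept genes were higher and 31.2% lower. Their median log2 change was 0.01 beside -0.19 for all kept genes. After scaling 18 were higher and 4 lower at 72 h, beside 25.8% and 26.2% of all kept genes. The higher neighbours at 72 h were 2 of 8 kept around ENC1, 1 of 6 around TM4SF4, 5 of 10 around LMNTD1 and 3 of 9 around ZPLD1. ARHGEF28 and BCAT1 among them were kept only through their 72 h libraries.

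The 3 largest rises among these neighbours were in genes directly beside a member, that is, with no other listed protein-coding gene between. Distance in bases was not used, so a gene next to a member in this order can lie far from it. TM4SF1, described above, is the gene next to TM4SF4. RASSF8, a Ras-association domain protein of cell junctions next to LMNTD1, read 30.9 and 32 TPM at 0 h, 31.7 and 32.58 after 24 h, 63.74 and 62.78 after 48 h, then 109.09 and 81.48 after 72 h. It stayed level at 24 h (0.03 ± 0.16) and rose by 0.99 ± 0.16 at 48 h (limma, adjusted p = 1.28e-07) and 1.55 ± 0.16 at 72 h (3.46e-20). ALCAM, an adhesion molecule of the immunoglobulin family next to ZPLD1, read 3.04 and 3.19 TPM at 0 h, 3.29 and 3.5 after 24 h, 6.5 and 5.84 after 48 h, then 13.26 and 9.96 after 72 h. Its log2 change was 0.80 ± 0.16 at 48 h (limma, adjusted p = 7.77e-05) and 1.60 ± 0.16 at 72 h (2.35e-20). RASSF8 and ALCAM were the 83rd and 74th largest rises at 72 h, and their calls at 48 and 72 h held when each library was left out in turn. In each of these 3 pairs the neighbour rose less than the member beside it on the log2 scale. This was not tested and carries little meaning, since the members were chosen for the size of their rise.

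Other neighbours changed by smaller amounts. Around LMNTD1, the transcription factor gene SOX5 rose by 1.32 ± 0.17 at 72 h (limma, adjusted p = 2.81e-13) and the calcium channel gene ITPR2 by 0.75 ± 0.17 (4.93e-05). The aminotransferase gene BCAT1 was higher by 0.95 ± 0.18 (limma, adjusted p = 1.13e-06), with 0.48 and 0.32 TPM at 0 h and 2.19 and 1.28 at 72 h. It passed the filter on low values only through its 72 h libraries, so its test is not read as support. ETNK1, an ethanolamine kinase, fell by 0.65 ± 0.16 on the log2 scale (0.00035), and without the second 0 h library its adjusted p was 0.05. BHLHE41, a clock-related repressor, fell by 0.51 ± 0.18 (limma, adjusted p = 0.0118), which was lost after scaling (0.0652). ETFRF1 was higher by 0.38 ± 0.16 (limma, adjusted p = 0.0424). Around ZPLD1, NFKBIZ, a regulator of NF-kappaB, rose by 0.53 ± 0.17 (limma, adjusted p = 0.00853) and the ubiquitin ligase gene CBLB by 0.49 ± 0.17 (0.0131), and NXPE3 fell by 0.42 ± 0.17 (0.0302). Around ENC1, GFM2, a mitochondrial translation factor, fell by 0.94 ± 0.16 (limma, adjusted p = 9.07e-08). ARHGEF28 was higher by 0.41 ± 0.18 (limma, adjusted p = 0.0474), with 0.82 and 0.62 TPM at 0 h and 1.53 and 1.06 at 72 h. Like BCAT1, ARHGEF28 was kept only through its 72 h libraries, so its test is not read as support. Near TM4SF4, COMMD2 fell by 0.50 ± 0.16 (limma, adjusted p = 0.0066).

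Several of those smaller calls were lost in fits with 1 library left out. For ETFRF1, NXPE3 and ARHGEF28 at 72 h this was so even without a 24 h or 48 h library, which is not in the comparison. With 1 library left out, limma's largest adjusted p was 0.372 for ETFRF1 (call lost in 7 of 8 such fits), 0.189 for NXPE3 (6 of 8) and 0.297 for ARHGEF28 (6 of 6). It was 0.16 for BHLHE41 (3 of 8), 0.283 for CBLB (2 of 8), 0.12 for COMMD2 (2 of 8) and 0.125 for NFKBIZ (1 of 8). The call of CD47, a neighbour of ZPLD1 that was higher at 48 h (0.53, limma adjusted p = 0.0185), was lost in 6 of 8 such fits, and that of ETFRF1 at 48 h (0.51, 0.0236) also in 6 of 8. SOX5, ITPR2, GFM2, TM4SF1, RASSF8 and ALCAM kept their 72 h calls in every such fit. BCAT1 and ARHGEF28 did not pass the filter on low values without the first or the second 72 h library. BCAT1 kept its call in the remaining fits.

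**Figure D4:**
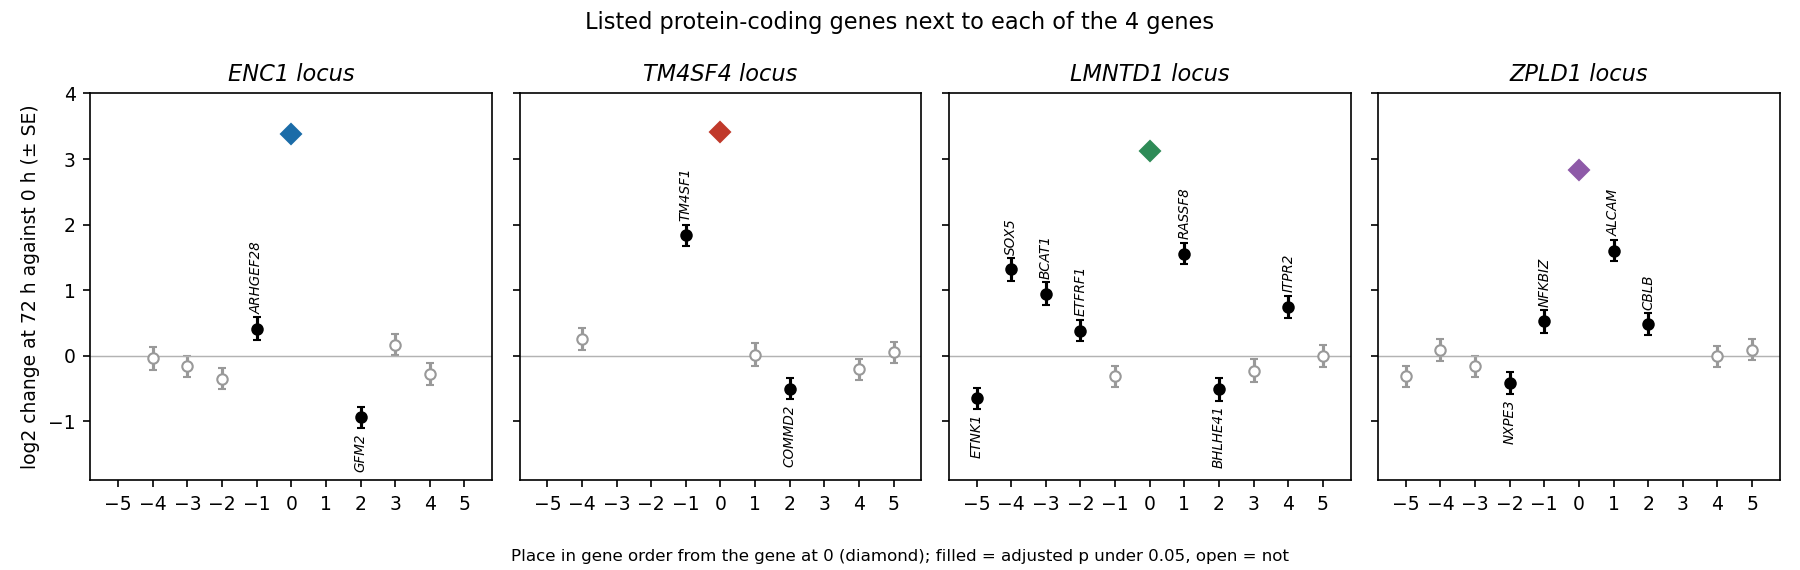
Log2 change at 72 h against 0 h (± SE) of the kept protein-coding genes reported here on either side of each of the 4 genes, by place in gene order, with the gene itself at 0 as a diamond. Filled circles passed the test; TM4SF1 (1.84), RASSF8 (1.55) and ALCAM (1.60) stand directly beside TM4SF4, LMNTD1 and ZPLD1.

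Markers of cells in which these genes are otherwise known were measured beside them. Neuronal markers, relevant to ENC1, summed to 81.09 to 86.51 TPM at 0 h and 62.74 to 86.07 at 72 h, most of it TUBB3, and 6 of 11 were under 1 TPM in every library (STMN2, ELAVL4, NEFL, NEFM, RBFOX3 and DCX). SNAP25 rose by 1.08 ± 0.17 at 72 h (limma, adjusted p = 1.2e-08) and SYP fell by 0.67 ± 0.17 (0.000414). Hepatocyte and islet markers, relevant to TM4SF4, summed to 3.39 to 4.49 TPM at 0 h and 3.75 to 4.62 at 72 h, with 10 of 12 under 1 TPM in every library. NEUROD1 was higher at 72 h (0.70 ± 0.17, limma adjusted p = 0.000334), and ALB was at 1.51 and 2.35 TPM at 0 h and 1.06 and 1.86 at 72 h. Male germ cell markers were under 1 TPM in every library, 9 of 9.

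Of 11 fibroblast, immune and endothelial markers, 3 were kept, LUM, COL1A1 and COL3A1, and these were higher at 72 h. The summed level of all 11 was 10.91 to 13.05 TPM at 0 h, 9.47 to 11.21 at 24 h, 28.62 to 29.87 at 48 h and 37.11 to 52.75 at 72 h. The part this plays in the rises of the 4 genes was not tested. The sum was mostly LUM, the matrix proteoglycan lumican, at 9.35 and 9 TPM at 0 h and 45.01 and 29.64 at 72 h (1.88 ± 0.16, limma adjusted p = 1.62e-29). COL1A1 rose by 0.59 ± 0.17 (limma, adjusted p = 0.00248), a call lost without the second 0 h or the second 72 h library. COL3A1 was at 0.01 and 0.02 TPM at 0 h and 2.63 and 1.88 at 72 h, a log2 change of 1.67 ± 0.18. It passed the filter on low values only through its 72 h libraries, so its test is not read. The other 8 genes of the list were not kept, and PTPRC, CD3E, CD14, PECAM1, VWF and CDH5 were under 1 TPM in every library. The fibroblast gene DCN was at 1.06 and 0.15 TPM at 0 h and 0.41 and 0.52 at 72 h. COL1A2 was at 0.16 in both 0 h libraries and at 0.91 and 0.79 at 72 h. Colon epithelial markers summed to 3225.63 to 3248.63 TPM at 0 h, 4189.80 to 4229.92 at 48 h and 3152.28 to 4235.28 at 72 h. In this list GPA33 rose by 1.55 ± 0.17 at 72 h (limma, adjusted p = 2.61e-17) and CDH17 by 1.25 ± 0.16 (1.3e-12), both intestinal surface proteins, while the intestinal transcription factor gene CDX2 fell by 0.59 ± 0.16 (0.00149).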

How the data were processed

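RNA of SW480 cells was measured in 8 libraries, 2 for each of 4 groups taken from the sample labels. The authors deposited 1 table of TPM values per gene symbol, and per the submitters' processing notes the tools were FastQC, Trimmomatic, STAR, Picard, SAMtools and RSEM with genome build hg19. On tool versions, gene annotation, strand setting and read depth nothing is given in the sources used here, so counting error could not be attached to a level. RSEM can divide reads between overlapping or near-identical genes, on either strand where strand was not used. A few genes that the naming rule takes are not reported here.

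From these values log2(TPM + 1) was computed, genes reaching 1 TPM in 2 or more libraries were kept, and 1 limma model (version 3.58.1, R 4.3.3, mean-variance trend, 4 residual degrees of freedom) was fitted to all 8 libraries, with Benjamini-Hochberg adjustment over the 11894 kept genes, two-sided, at 0.05. All 4 members were kept, TM4SF4 and ZPLD1 through 4 libraries each. Changes on this scale understate those of low genes. Moderation gave each gene the spread of the trend on deposited values, and 5.41 prior degrees of freedom after median-ratio scaling. The step was tested on simulated data.

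The members and gene lists were chosen with earlier results of these data known. Genes named are the members, TCF7L2, up to 3 genes of each list with the smallest p at 72 h, kept neighbours called at 72 h, the 3 nearest profiles of each member and the 2 genes ranked on either side of it at 48 and 72 h; exceptions are stated. Alternatives were pseudocounts of 0.1 and 5, no filter, a TPM minimum of 5, median-ratio scaling, the replicate number as a block and leaving out each library; scaling and leaving out the second 72 h library for the list and neighbour counts were chosen after seeing the data. Promoter windows came from RefSeq (GRCh38.p14) by symbol, and overlaps and shared 31-base stretches from GENCODE v29 (GRCh38), so no coordinates of the deposited build are given. Protein sequences were not used here.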

Additional observations from a re-analysis of the deposited data

Results flagged for a closer look

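ZPLD1 lay on opposite sides of the 0 h libraries at different times: both 24 h libraries were below both of them (log2 change -0.10), and both later pairs were above (1.15 at 48 h and 2.83 at 72 h). The difference was not tested, because the later times chose the gene, and all 4 early values were under 1 TPM.

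Among the other genes described, 5 were picked out because they crossed the 0 h libraries between 24 h and a later time and the later minus the earlier change passed the test. Crossing was common: 9.37% of all kept genes crossed between 24 and 48 h, 7.56% between 24 and 72 h and 6.54% between 48 and 72 h. It was read on TPM as deposited only, where both 24 h libraries lay below both 0 h libraries for 46.7% of all kept genes. A crossing with a small fall at 24 h can therefore depend on the scaling: the 24 h change of CD47 was -0.02 after median-ratio scaling. No 24 h change of the 5 passed the test against 0 h (limma, adjusted p = 0.389 for TM4SF1, 0.882 for LUM, 0.486 for GSN, 0.927 for CD47 and 0.164 for BHLHE41), so only the difference between times is tested. TM4SF1, next to TM4SF4, was at -0.42 at 24 h, and its later changes exceeded that by 1.11 at 48 h (limma, adjusted p = 2.39e-09) and 2.26 at 72 h (7.44e-42). LUM was at -0.18 at 24 h and exceeded it by 1.5 at 48 h (limma, adjusted p = 1.22e-17) and 2.06 at 72 h (3.86e-35). GSN was at -0.39 at 24 h and exceeded it by 0.74 at 48 h (limma, adjusted p = 0.000304) and 1.04 at 72 h (3.31e-09). CD47, a neighbour of ZPLD1, was at -0.11 at 24 h and 0.64 higher at 48 h (limma, adjusted p = 0.00332). BHLHE41, a neighbour of LMNTD1, went the other way, from 0.55 at 24 h to -0.51 at 72 h, a difference of -1.06 (limma, adjusted p = 3.47e-08).

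CDX2 was at 0.11 at 48 h (limma, adjusted p = 0.792) and -0.59 at 72 h, a difference of -0.70 (limma, adjusted p = 0.000313).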

How the results depend on the processing

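The number of genes called at 24 h (55 as reported) was 0 with no filter, 30 with a TPM minimum of 5, 129 after median-ratio scaling and 10 to 740 with 1 library left out. At 48 h (922) it was 199, 604, 2797 and 278 to 3146 under the same settings, and at 72 h (4968) it was 2662 to 7658 with 1 library left out; the highest counts came without a 72 h library. Among the members at 24 h, TM4SF4 (0.14) ranged from -0.0279, without the second 0 h library, to 0.30 with 1 library left out. LMNTD1 (0.45) was called after scaling (0.52) and without either 72 h library, with 0.40 to 0.50 over all fits with 1 library left out.

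The pseudocount set the size of the changes. At 24 h a pseudocount of 0.1 gave 0.44 for ENC1, 0.65 for TM4SF4, 0.57 for LMNTD1 and -0.35 for ZPLD1, and a pseudocount of 5 gave 0.19, 0.03, 0.24 and -0.02, with none called. At 48 h a pseudocount of 0.1 gave 2.76 for ENC1, 4.12 for TM4SF4, 2.12 for LMNTD1 and 2.33 for ZPLD1, and a pseudocount of 5 gave 1.68, 0.84, 1.17 and 0.38. At 72 h the values were 3.72, 5.54, 3.48 and 4.41 with 0.1 and 2.50, 1.68, 2.25 and 1.32 with 5, so the order of the members by log2 change depends on it. LMNTD1 at 72 h was 3.32 after scaling. With 1 library left out, the 72 h changes were 3.17 to 3.58 for ENC1, 3.25 to 3.58 for TM4SF4, 2.95 to 3.30 for LMNTD1 and 2.68 to 2.99 for ZPLD1. The fall of TCF7L2 at 72 h was called in each of these alternatives.

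For counts of higher genes at 72 h, scaling and leaving out the second 72 h library gave 2 and 2 BTB-kelch genes, 6 and 6 tetraspanins, 3 and 2 lamin-related genes, and 20 and 12 actin genes. Zona pellucida domain genes numbered 0 without that library, and neighbouring genes 18 after scaling. The cause was not tested.

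Replicate numbers did not pair the libraries: the correlations of their differences between groups ran from -0.09 to 0.11. With the replicate block 51, 864 and 4860 genes were called at 24, 48 and 72 h, and the 24 h values of ENC1 (limma, adjusted p = 0.646), TM4SF4 (0.932), LMNTD1 (0.355) and ZPLD1 (0.95) stayed uncalled. Depth is unknown, so differences under 1 TPM, such as those of TM4SF4 and ZPLD1 between 0 and 24 h, could not be set against counting error.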
